A study of Caenorhabditis elegans with 2 samples.

Results

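The regions described here are the DVE-1 binding peaks that were stronger in replicate 1 than in replicate 2, relative to each replicate's typical peak. They number 520 of the 7262 peaks that the authors retained as their optimal set on the ce11 assembly. Whole Caenorhabditis elegans hermaphrodites at the L4 larval stage were used for chromatin immunoprecipitation, followed by sequencing of the recovered DNA. The animals were of strain OP398, with the allele unc-119(tm4063) on chromosome III and the transgene wgIs398, which expresses DVE-1 with GFP and FLAG at its C-terminus. The antibody recognised GFP, so the profile is that of the tagged protein. There was 1 group with 2 biological replicates, and all animals carried the same allele and transgene. No depth can be given for either library, since the lists hold no read counts. With whole animals, a peak cannot be assigned to a tissue.

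DVE-1 is a homeodomain protein related to the SATB proteins of mammals, which bind DNA and organise chromatin. It acts in the unfolded protein response of mitochondria, during which it gathers at the promoters of chaperone genes in intestinal nuclei. A peak in immunoprecipitated chromatin marks DNA that lay near the tagged protein in some cells of the animal. Its summit is the base with the highest signal, and 2 biological replicates differ in animals and in the immunoprecipitation as well as in sequencing.

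The members were chosen by the measured signal. An optimal peak was kept where the list of each replicate had a summit within 100 bp, which held for 6828 peaks. The signal of the nearest summit was divided by the replicate's median over these 6828 peaks, 29.5 in replicate 1 and 38.2 in replicate 2, and the result is called the relative signal. A member has a log2 ratio of relative signals, replicate 1 over replicate 2, of 0.6 or more and a signal of 50 or more in the pooled list. There were 4858 matched peaks with that pooled signal, called eligible here, and the 520 members were 10.7% of them. In the opposite direction, 566 eligible peaks (11.7%) had a log2 ratio of -0.6 or less. The ratio and the strength of the members follow from this choice and are given as description, without a test. With 1 value per replicate the ratio of a single peak has no error of its own. Shares carry exact binomial 95% intervals, which cover counting error over peaks only.

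The sequences at 7 members are shown because they carry the main contrast among the members, that between peaks with a high ratio and peaks with a high signal. The first 4 have the highest ratios among members outside the chromosome whose sequences are not printed, and the last 3 are among the strongest members by pooled signal. Each is the 200 bases around the summit of the optimal peak, read from the RefSeq sequence of WBcel235 (ce11). Capitals mark the stretch from the summit of one replicate to that of the other.
vav-1 (chrX:9225434-9225633, + strand): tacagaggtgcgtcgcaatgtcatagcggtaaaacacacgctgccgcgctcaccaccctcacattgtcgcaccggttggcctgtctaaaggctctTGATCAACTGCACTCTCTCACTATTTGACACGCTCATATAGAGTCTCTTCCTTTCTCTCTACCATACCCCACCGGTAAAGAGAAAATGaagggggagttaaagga
his-14 (chrII:13824461-13824660, + strand): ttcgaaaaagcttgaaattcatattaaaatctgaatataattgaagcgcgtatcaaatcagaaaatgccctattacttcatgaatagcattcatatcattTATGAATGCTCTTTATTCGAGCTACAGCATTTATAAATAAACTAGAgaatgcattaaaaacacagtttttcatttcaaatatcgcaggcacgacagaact
mak-1 (chrII:8747410-8747609, + strand): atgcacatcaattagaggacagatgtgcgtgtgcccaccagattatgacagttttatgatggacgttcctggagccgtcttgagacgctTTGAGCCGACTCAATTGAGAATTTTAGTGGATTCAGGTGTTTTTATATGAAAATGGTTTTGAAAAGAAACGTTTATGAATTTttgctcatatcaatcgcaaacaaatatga
nhr-40 (chrX:2590907-2591106, + strand): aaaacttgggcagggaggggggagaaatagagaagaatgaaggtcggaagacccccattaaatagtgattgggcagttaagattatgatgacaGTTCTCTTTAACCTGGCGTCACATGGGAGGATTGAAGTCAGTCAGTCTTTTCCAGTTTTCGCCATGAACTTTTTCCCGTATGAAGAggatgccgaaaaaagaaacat
F55G7.5 (chrX:11937428-11937627, + strand): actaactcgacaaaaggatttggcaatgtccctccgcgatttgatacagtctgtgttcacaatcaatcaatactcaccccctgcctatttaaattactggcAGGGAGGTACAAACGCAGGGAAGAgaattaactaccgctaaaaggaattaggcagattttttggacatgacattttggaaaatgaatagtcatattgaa
bcat-1 (chrX:12872365-12872564, + strand): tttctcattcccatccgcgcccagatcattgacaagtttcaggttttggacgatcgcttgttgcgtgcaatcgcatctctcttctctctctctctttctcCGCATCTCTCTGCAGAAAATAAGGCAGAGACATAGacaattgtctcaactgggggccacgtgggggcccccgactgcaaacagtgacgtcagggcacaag
fbxb-58 (chrX:1627040-1627239, + strand): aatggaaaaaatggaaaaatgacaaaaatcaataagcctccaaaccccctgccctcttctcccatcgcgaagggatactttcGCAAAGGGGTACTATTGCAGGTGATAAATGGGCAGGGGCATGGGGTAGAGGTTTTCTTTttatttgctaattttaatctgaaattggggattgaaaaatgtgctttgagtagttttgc
The stretch in capitals spanned 88 bases at vav-1, 46 at his-14, 82 at mak-1 and 86 at nhr-40, and 24, 35 and 59 bases at F55G7.5, bcat-1 and fbxb-58. Both summits thus lay over 40 bp apart at all 4 peaks with a high ratio, and also at fbxb-58. The base composition varied within both kinds, with a GC content of 30% at his-14 and 50% at vav-1, and of 39.5% at F55G7.5 and 52% at bcat-1. The window of F19H6.5, the second strongest member, reaches into annotated untranslated sequence and is not shown. The stretch between its replicate summits spanned 81 bases, so the span did not separate peaks with a high ratio from strong ones.

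The log2 ratio of the members ranged up to 4.88, with a median of 0.83. The median relative signal of the members was 1.43 in replicate 1 and 0.75 in replicate 2. All 520 members were among the 7262 strongest regions of replicate 1, and 440 (84.6%) were among the 7262 strongest of replicate 2. Over all eligible peaks these shares were 96.4% in replicate 1 and 98.3% in replicate 2. For the peaks of the opposite direction they were 69.8% in replicate 1 and 100% in replicate 2. Such shares follow from the choice by signal and are description only. The median rank was 2001 in replicate 1 and 5256 in replicate 2, of 30000 regions in each list. Most members were thus well above the weakest regions of both lists and differed in degree. A log2 ratio over 1 was found at 147 members and over 2 at 13, while 187 peaks of the opposite direction were under -1 and 29 under -2. The members just inside the threshold were C52D10.3, asah-1 and C02B4.3, at relative signals of 3.35, 0.95 and 1.51 in replicate 1 and 2.21, 0.63 and 1.00 in replicate 2. The peaks just outside it were at srv-1, C48E7.1 and oac-54, with 1.62, 0.91 and 1.18 in replicate 1 and 1.07, 0.60 and 0.78 in replicate 2. These peaks lie on both sides of the threshold at nearly the same ratio.

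**Figure D1:**
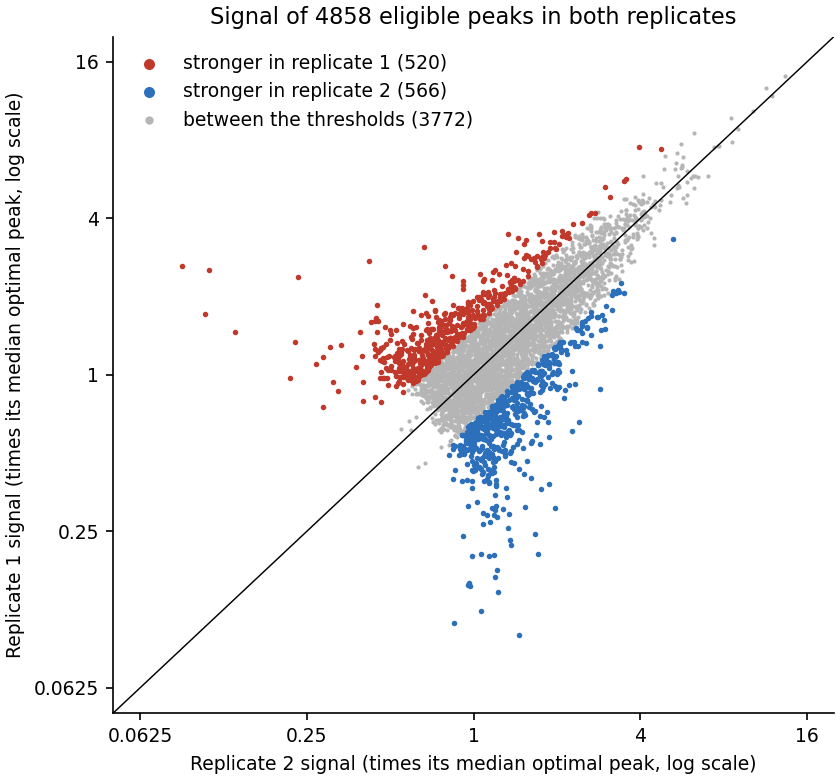
Relative signal of the 4858 eligible peaks in replicate 2 (x axis) and replicate 1 (y axis), both on log scales as multiples of the replicate's median matched peak. Red points are the 520 members, blue points the 566 peaks of the opposite direction, grey points the rest, and the line marks equal values. Points of both colours lie mostly at low signal, and a few red points at the left have a replicate 2 signal near 0.1.

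The members were weaker than the other eligible peaks. Their median pooled signal was 69.4 (95% interval 67.3 to 72.9), against 84.9 (82.9 to 86.6) for the 4338 others, and it was 69.3 for the peaks of the opposite direction. When the eligible peaks were divided by pooled signal into 5 classes of nearly equal size, members made up 16.9% of the weakest class, then 12.6%, 10.5% and 8.34%, and 5.25% of the strongest. The peaks of the opposite direction made up 17.2%, 16.9%, 12.2%, 8.34% and 3.6% of the same classes. The SD of the log2 ratio over all eligible peaks of a class was 0.73, 0.66, 0.54, 0.51 and 0.36 in the same order. Both directions became less frequent with strength, and the spread of the ratio narrowed.

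**Figure D2:**
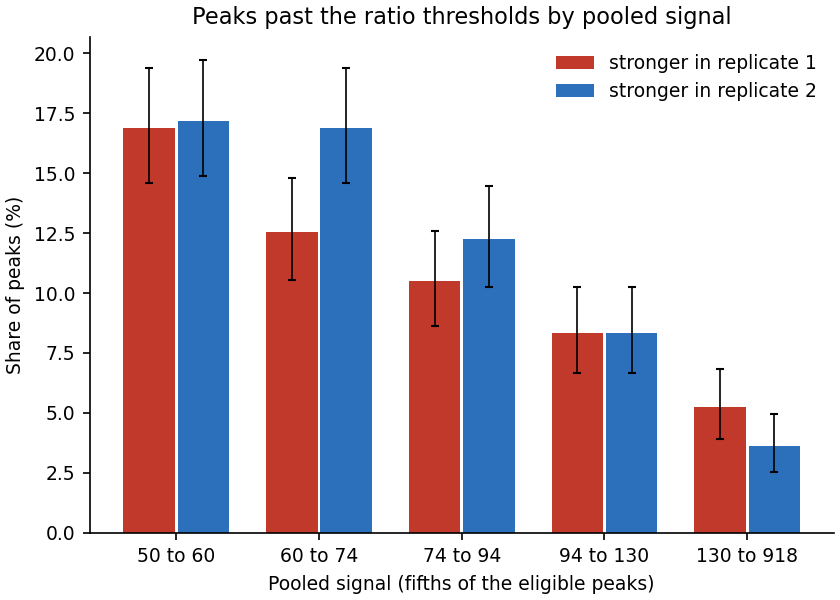
Share of eligible peaks (y axis, %) that were stronger in replicate 1 (red) or in replicate 2 (blue), by class of pooled signal (x axis, 5 classes of nearly equal size, weakest at the left). Error bars are exact binomial 95% intervals, and both shares are lowest in the strongest class, at 5.25% and 3.6%.

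The highest ratio belonged to a peak upstream of ego-1, an RNA-dependent RNA polymerase of the germ line (chrI:7656706-7657241). Its relative signal was 2.61 in replicate 1 and 0.089 in replicate 2, a log2 ratio of 4.88. Replicate 2 had a stronger summit 113 bp from the optimal summit, just past the distance allowed for a match, with a relative signal of 1.53. With the strongest summit within 300 bp in each replicate, the log2 ratio at ego-1 was 0.77. The same arrangement was found at D2030.2 (chrI:7574002-7574185), where the relative signal was 2.52 in replicate 1 and 0.11 in replicate 2, with a summit of 1.45 in replicate 2 at 101 bp. At vav-1 (chrX:9225352-9225715), the values were 1.71 in replicate 1 and 0.11 in replicate 2, with a summit of 1.02 at 117 bp. A peak 3' of mak-1, a protein kinase of the MAPKAP family (chrII:8747242-8747644), had 2.38 in replicate 1 and 0.23 in replicate 2, with a summit of 1.00 at 133 bp. These 4 peaks therefore had sizeable signal in replicate 2 close by, centred at another base.

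At the histone gene his-14 (chrII:13824379-13824742) replicate 1 had a relative signal of 1.46 and replicate 2 had 0.14. The strongest summit of replicate 2 within 300 bp reached 0.27, and the log2 ratio was 2.46 with that summit, against 3.41 with the nearest. Histone genes occur in near-identical copies, so how reads were placed there is uncertain. At pas-5, which encodes an alpha subunit of the core proteasome, the relative signals were 2.74 in replicate 1 and 0.42 in replicate 2, and the summit lay within a snoRNA gene. The peak near F19B2.5 (chrV:20162323-20162924) stood apart from these. Its relative signal was 3.11 in replicate 1 and 0.66 in replicate 2 (log2 ratio 2.24), the summits were 5 bp apart, and replicate 2 had no stronger summit within 300 bp. It was also the widest member, at 602 bp. The other peaks among the 15 highest ratios were at nhr-40 and nhr-66, 2 nuclear hormone receptor genes, unc-85, a histone chaperone, spsb-1, kat-1, a thiolase of fatty acid breakdown, C53D5.5, C13G3.1 and W09C3.4. Their log2 ratios were between 1.91 and 2.56 with the nearest summits. With the strongest summits within 300 bp they were 0.61 at nhr-40, 1.35 at nhr-66, 0.97 at spsb-1 and 0.95 at C13G3.1. They were below the threshold at C53D5.5 (0.54), unc-85 (0.17) and kat-1 (0.16). At W09C3.4 the relative signals were 1.46 in replicate 1 and 0.39 in replicate 2. The strongest summit of replicate 2 within 300 bp, at 192 bp, reached 3.08, and the log2 ratio with the strongest summits was -0.40. Both values equal those of a neighbouring optimal peak at chd-7, so they describe that peak and not the one at W09C3.4. A summit within 300 bp can thus belong to a neighbouring optimal peak.

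Over the 15 highest ratios, the summits of both replicates were more than 40 bp apart at 13 peaks, and replicate 2 had a stronger summit within 300 bp at 14. With the strongest summits, 11 of the 15 kept a log2 ratio of 0.6 or more. Over all members, 54 (10.4%) had a stronger summit of replicate 2 within 300 bp, and 0.83% of the other eligible peaks had one. The members were chosen for a low signal at the nearest summit of replicate 2, which favours a stronger one nearby, so these shares are a description of the choice and support nothing. These included 12 of the 13 members with a log2 ratio over 2 and 39 of the 147 over 1. Their stronger summits lay at 100 to 248 bp, with a median of 159 bp, and their median log2 ratio was 1.41 with the nearest summit and 0.41 with the strongest. The mirror image held in the opposite direction, where 66 of 566 peaks (11.7%) had a stronger summit of replicate 1 nearby, against 14 members (2.69%). Of all members, 486 (93.5%) kept a log2 ratio of 0.6 or more with the strongest summits, and 12 fell below 0.

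**Figure D3:**
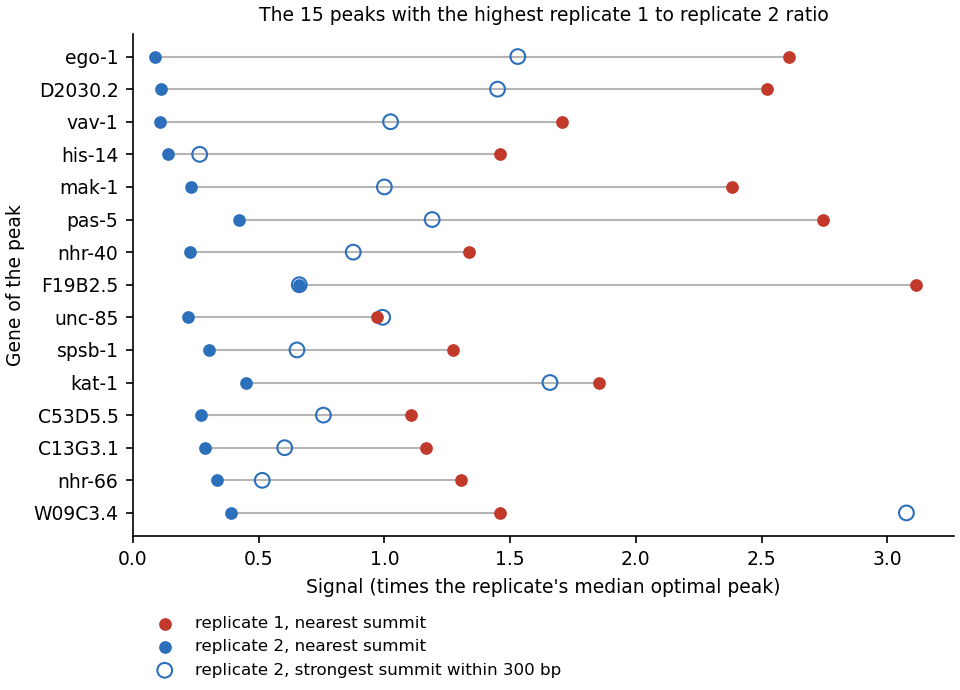
Relative signal (x axis, multiples of the replicate's median matched peak) at the 15 members with the highest ratio (rows, highest at the top). Filled red and blue points are the nearest summits of replicates 1 and 2, and open circles the strongest summit of replicate 2 within 300 bp. At F19B2.5 the open circle coincides with the blue point. At W09C3.4 it lies beyond the red point, at 3.08, which is the value of a neighbouring optimal peak at chd-7.

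At 318 members the summits of both replicates were within 40 bp of each other, with no stronger summit of either replicate within 300 bp. Of these, 68 had a log2 ratio over 1. Of these 318, 56.9% were in promoter windows and 22.0% on the X chromosome. The examples that follow are 5 of the 10 highest ratios of that set and were chosen after their values were seen. The others of the 10 were at F19B2.5, M01B12.4, F41H10.3, nlp-24 and gpcp-1. A peak at the promoter of C56E10.3 (chrX:6646396-6646759) had a relative signal of 1.46 in replicate 1 and 0.45 in replicate 2. At the promoter of cpr-1, a cathepsin B protease of the gut (chrV:11975279-11975642), the values were 2.03 in replicate 1 and 0.67 in replicate 2, a log2 ratio of 1.60. At sqst-1, the worm counterpart of the autophagy receptor p62, they were 1.27 in replicate 1 and 0.46 in replicate 2. The promoter of hil-3, a linker histone gene, had 1.22 in replicate 1 and 0.45 in replicate 2. A peak in a coding exon of ccd-5 (chrX:2569149-2569298) had the highest pooled signal of these 10, 151, with 3.49 in replicate 1 and 1.33 in replicate 2. At these loci both replicates marked the same place and differed in height, which follows from how the set was chosen and ranked.

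The 15 strongest members all had log2 ratios below the upper quartile of all members, 1.03. The first by pooled signal was a peak downstream of F55G7.5 (chrX:11937306-11937842), at a pooled signal of 396 and a relative signal of 7.38 in replicate 1 and 4.77 in replicate 2. The second lay downstream of F19H6.5 (chrX:12362904-12363433), with a pooled signal of 368 and relative signals of 7.50 in replicate 1 and 3.95 in replicate 2. A peak about 5 kb upstream of bcat-1, a branched-chain amino acid aminotransferase (chrX:12872294-12872653), had 5.65 in replicate 1 and 3.55 in replicate 2. Near hif-1, the transcription factor of the response to low oxygen (chrV:20778241-20778539), the values were 4.83 in replicate 1 and 3.11 in replicate 2. The peaks at cpr-4, a second cathepsin B gene, and imb-3, an importin, had 3.45 and 3.50 in replicate 1 and 2.15 and 2.20 in replicate 2. The others were at casc-3, fbxb-58, ppfr-1, F21C10.10, nhr-88, F54F12.1, F22B7.9, sor-1 and C52D10.3. The log2 ratio of these 15 peaks was between 0.60 and 0.93, and 5 of the 15 were in promoter windows. None had a stronger summit of replicate 2 within 300 bp, and all 15 kept a log2 ratio of 0.6 or more with the strongest summits.

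The members were spread over all 6 chromosomes. The X chromosome held 126 (24.2%, 20.6 to 28.2%), against 21.3% (20.1 to 22.6%) of the other eligible peaks and 22.3% of the peaks of the opposite direction. Chromosomes II, III and IV held 97, 86 and 81 members (18.7%, 16.54% and 15.6%), against 15.2%, 15.4% and 15.4% of the others. Chromosome V held 73 members (14%, 11.2 to 17.3%), against 17.8% (16.7 to 19%) of the others. Chromosome I held 57 (11.0%, 8.41 to 14%), against 14.8% (13.8 to 15.9%). The share of the members was above that of the others on X, II, III and IV and below it on V and I, and the intervals of the members and the others overlapped for every chromosome. With each chromosome divided into 3 parts of equal length, the middle part held 41.3% of the members and 44.1% of the others.

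By gene position, 286 members (55.0%, 50.6 to 59.3%) had their summit in a promoter window, from 1000 bp upstream to 200 bp downstream of a protein-coding 5' end. The share was 57.5% (56.0 to 59.0%) among the other eligible peaks. These 286 members lay in the windows of 321 genes, and 37 of them in the windows of 2 or more genes. Introns held 70 members (13.5%, against 14.7% of the others), the 1000 bp downstream of genes held 38 (7.31%, against 7.10%) and 102 were elsewhere (19.6%, against 18.1%). The remaining members were 13 in coding exons (2.50%, against 1.43%) and 11 in untranslated exons (2.12%, against 1.2%). Between genes on divergent strands lay 25.8% (22.1 to 29.8%) of the members and 30.6% (29.2 to 32.0%) of the others, and between genes on the same strand 38.3% (34.1 to 42.6%) and 33.9% (32.5 to 35.3%). Each of these pairs of intervals overlapped.

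**Figure D4:**
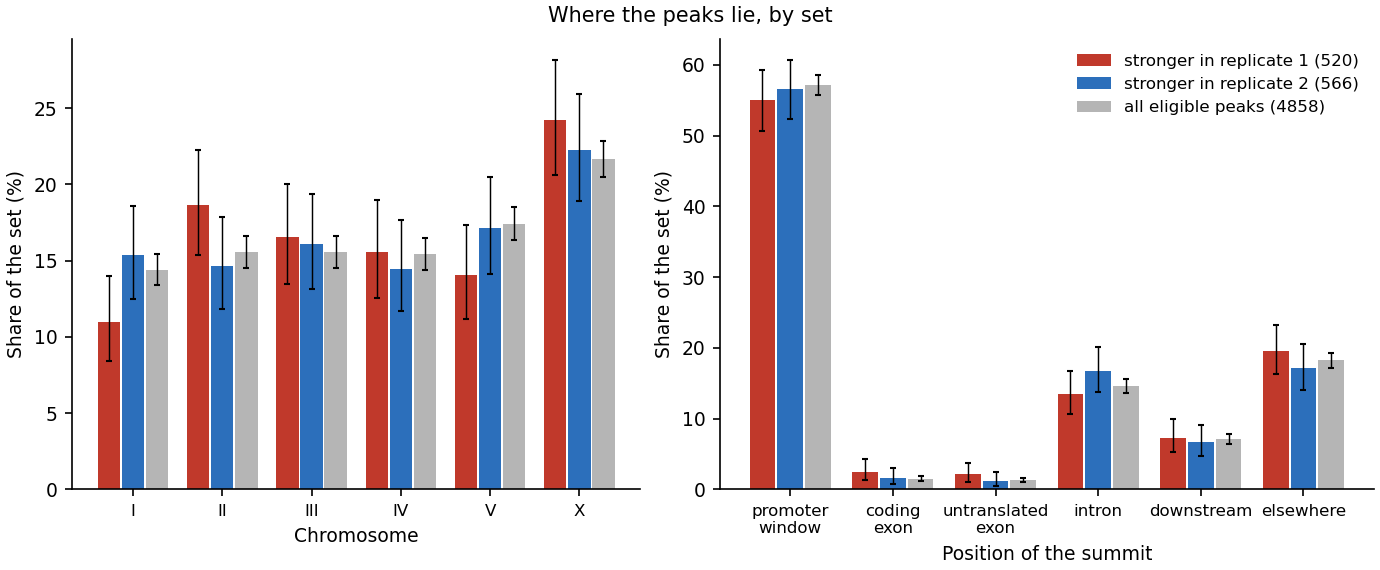
Share of peaks (y axes, %) by chromosome (left) and by position of the summit relative to protein-coding genes (right), for the 520 members (red), the 566 peaks of the opposite direction (blue) and all 4858 eligible peaks, which include both (grey). Error bars are exact binomial 95% intervals, and the red and grey intervals overlap in every class.

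Width was compared with the other eligible peaks and with the whole optimal list. The most frequent width of the optimal list, 364 bp, was that of 375 members (72.1%, 68.0 to 75.9%), against 61.5% (59.99 to 62.9%) of the others. Narrower regions made up 25.2% of the members and 36.8% of the others, and wider ones 2.69% and 1.75%. The peaks of the opposite direction were of the same kind as the members, with 76.0% at 364 bp. Over all 7262 optimal peaks, which include weaker ones, 74.1% were 364 bp wide and 24.5% were narrower, close to the members. The members were also weaker than the others, and among the 111 with a pooled signal of 100 or more the median width was 202 bp. Whether strength accounts for the difference in width was not tested. The 14 wider members included ego-1, F19B2.5, F55G7.5 and F19H6.5, which were described above.

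The sequence around the summits was compared by base composition and by short words. The median GC content of the 200 bp at the summit was 38.5% (38.0 to 39.5%) in members, 39.5% (39 to 40%) in the others and 39% in the opposite direction. Over all 7262 optimal peaks it was 38.5% (38.5 to 39%), the same as in members. On either strand, TGATAA, the site of GATA factors, was in 41.2% of the members and 43.4% of the others, and in 42.7% of all optimal peaks. GAGACGCAG was in 10.2% of the members and 10.4% of the others (9.07% of all optimal peaks), and CACGTG, an E-box, in 9.62% and 10.6% (9.13%). TATAAA was in 19.4% and 17% (17.9%), and TTCTAGAA, a heat shock element core, in 1.54% and 0.97% (1.1%). A summit within 300 bp of a small RNA gene was found at 37 members (7.12%, 5.06 to 9.67%), against 6.25% of the others. They were 27 tRNA, 7 snoRNA and 3 snRNA genes. Many tRNA and snRNA genes occur in near-identical copies, so read placement there is uncertain.

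Most members lay apart from each other. The nearest other eligible peak was itself a member for 66 members (12.7%, 9.95 to 15.9%) and for 10.8% of the other eligible peaks, and Pearson's r of the log2 ratio with that of the nearest peak was 0.0075 over 4858 peaks, which share libraries and control. Where the nearest peak was 1000 to 3000 bp away, 33 of 183 members (18%, 12.8 to 24.4%) had a member beside them, against 11.0% (9.38 to 12.7%) of the others. The shares were 11.96% and 10.03% at under 1000 bp, 9.93% and 11.4% at 3000 to 10000 bp, and 7.45% and 10.5% beyond, so members were above the others in 2 of the 4 distance classes and below them in 2. With a reach of 3000 bp from one summit to the next, 27 pairs, 2 runs of 3 and 1 run of 4 were found, and 456 members were alone. No such count over other peaks is given beside these, so they are description only. The run of 4 lay before and in the first part of nhr-88, a nuclear hormone receptor gene, with summits between 2970626 and 2976873 on chromosome II. It took in 4 of the 5 eligible peaks there. Their relative signals were 1.32, 1.41, 4.14 and 1.03 in replicate 1 and 0.68, 0.74, 2.61 and 0.52 in replicate 2, in order of position. A pair lay at the neighbouring genes fat-4 and fat-3, desaturases of polyunsaturated fatty acid synthesis, with 3.23 and 2.04 in replicate 1 and 1.89 and 1.26 in replicate 2.

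Of the 30 gene lists that were counted, 24 had at least 1 member and 11 had a share of members above 10.7%. The counts are small and no list was tested. Among genes of the mitochondrial stress response, the process DVE-1 is known for, 2 of 17 eligible peaks at its regulators were members. These were at the promoters of cbp-1, a histone acetyltransferase, with 0.97 in replicate 1 and 0.46 in replicate 2, and of smo-1, the SUMO gene, with 1.00 and 0.60. None of the 9 eligible peaks at mitochondrial chaperone, protease and import genes was a member, and their median log2 ratio was 0.08. Of 24 peaks at genes of oxidative phosphorylation 3 were members, at mev-1 and jmjd-4, at asg-2 and glr-6 and at cox-6A. The first, shared with a subunit of succinate dehydrogenase, had 3.23 in replicate 1 and 1.95 in replicate 2. Of 18 peaks at genes of the endoplasmic reticulum stress response 3 were members, among them one downstream of xbp-1, the transcription factor of that response, with 2.52 in replicate 1 and 1.57 in replicate 2. The others were at cdc-48.1, an AAA ATPase, and pdi-2, a protein disulfide isomerase. Among cytosolic chaperones 2 of 19 were members, and the one between the small heat shock genes hsp-16.2 and hsp-16.41 had 1.80 in replicate 1 and 0.91 in replicate 2.

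Of the peaks at ribosomal protein genes, members were 3 of 66 for the cytosolic ribosome (4.55%, rpl-6, rpl-18 and rpl-11.2) and 1 of 25 for the mitochondrial ribosome (mrpl-36). Of 66 peaks at cytosolic ribosomal genes 6 were in the opposite direction. No peak at genes of translation factors (of 25) or aminoacyl-tRNA synthetases (of 8) was a member. Of 21 proteasome peaks 2 were members, at pas-5 and at the promoter shared by rpn-5 and the cohesin gene scc-1. Nuclear hormone receptor genes had the highest number, 18 of 157 eligible peaks (11.5%), with 14 in the opposite direction and a median log2 ratio of 0.09. Besides the 4 at nhr-88 they included 2 at nhr-35, of which the stronger had 3.18 in replicate 1 and 2.03 in replicate 2. Among other regulators, members were found at 5 of 65 peaks of bZIP and bHLH genes, 2 of 16 of GATA factor genes and 2 of 15 of homeobox genes. These included a peak near elt-2, the main GATA factor of the intestine, with 1.32 in replicate 1 and 0.56 in replicate 2. For insulin and nutrient signalling 2 of 32 were members, in introns of daf-16, the FOXO factor, with 1.84 in replicate 1 and 1.12 in replicate 2, and of hlh-30, the TFEB homologue, with 1.24 and 0.67. The DREAM and synMuv list had 2 of 14, at lin-36 and let-418.

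Among metabolic genes, members were found at 5 of 49 peaks of fatty acid and vitellogenin genes (fat-4, fat-3 and the elongase gene elo-2 the strongest), 7 of 80 of detoxification genes, 2 of 10 of glycolysis and gluconeogenesis genes and 1 of 11 of vacuolar ATPase genes. The gluconeogenic gene pck-2 had 1.53 in replicate 1 and 0.98 in replicate 2. Of the lists of tissues and structures, intestine had 2 of 33, innate immunity 2 of 46, histones 2 of 15, moulting and apical matrix 2 of 15, muscle 1 of 9, neuropeptides 1 of 14 and chemoreceptor families 1 of 38. The muscle member was at the actin gene act-2, with 2.29 in replicate 1 and 0.91 in replicate 2. Cuticle collagens (12 peaks), synapse and neurons (11) and germ line and oocytes (4) had none.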

How the data were processed

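Per the text deposited beside the lists, the authors made for each replicate, and for both pooled, a list of peaks and background from the sample's alignment and 1 shared control alignment, and an optimal list by the irreproducible discovery rate (IDR) from these. The IDR threshold, the aligner and the caller with their versions were not given in the sources used here. The control was not analysed here. The deposited signal of a region is comparable within its list only, so relative signals were used. An error of the control would reach both replicates. On ce11, the optimal peaks were the pooled list cut at its 7262 strongest regions.

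The ratio used no pseudocount. Positions came from the Ensembl release 115 annotation, in the order promoter window, coding exon, untranslated exon, intron, downstream, elsewhere. A member is named by the genes whose promoter window holds its summit, otherwise by the gene that contains it, otherwise by the nearest gene. Named were the 15 members with the highest ratio, the 15 with the highest pooled signal, up to 3 per gene list and 3 on each side of the threshold. Peaks named outside this rule are given as such or for a property stated beside them. The members and lists were chosen with earlier results of these data known. The symbols clpx-1, atf-5, daf-21 and opt-2 did not match the annotation. The rule was run on simulated lists, made from the optimal peaks with the summits of both replicates kept close to them. How it performs where replicate summits lie further apart, as at most of the highest ratios, was not tested. Alternatives covered matching, scaling, thresholds, windows and the ce10 assembly. Software was Python 3.11.15, pandas 2.3.3, numpy 2.4.6, scipy 1.17.1 and matplotlib 3.10.9.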

Additional observations from a re-analysis of the deposited data

How the results depend on the processing

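The rule needs both replicates, so neither can be left out. No paired analysis was possible because there is 1 group. With other matching distances, scalings or the ce10 lists, the number of members was between 423 and 539. It was 973 at a log2 ratio threshold of 0.4 and 147 at 1, where the X share was 29.3% and the median GC content 40%. It was 922 with no minimum of pooled signal, with 50% in promoter windows, and 111 with a minimum of 100, with 9.91% near small RNA genes, a median GC content of 41.5% and a median width of 202 bp. The ce10 lists gave a median width of 370 bp. A promoter window of 500 to 100 bp held 42.7% of the members and 45.2% of all eligible peaks, and one of 2000 to 200 bp 68.5% and 70.6%. The median GC content was 41% in members and 42% in all eligible peaks over 100 bp, and 36% and 36.2% over 500 bp. Taking the strongest summit within 300 bp, an alternative chosen after seeing the data, left 490 members, 486 of them shared. It took C53D5.5, unc-85 and kat-1 below the threshold. At W09C3.4 it gave -0.40, the log2 ratio of the neighbouring optimal peak at chd-7. The cause of the other shifts was not tested. The lists hold no counts, so depth limits each ratio by an unknown amount, and 1 value per replicate gives no error for a single peak.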
